A study of Mus musculus with 17 samples.

Results

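RGS proteins (regulators of G protein signalling) are the shut-off side of G protein-coupled receptors, and their transcripts were followed here in hematopoietic stem cells (HSCs) of mice. The genes described are Rgs1, Rgs2, Rgs3, Rgs10, Rgs14, Rgs16, Rgs18 and Rgs19, taken as all 18 probe sets of the array that are annotated to 1 of these symbols alone. These are 8 of the 18193 genes named on the array and 8 of the 19 RGS genes named there. The 8 were chosen from results of these same arrays, and the contrast that picked them is not recorded, so their values, intervals and calls describe them and are no independent test.

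Transcripts of sorted HSCs were measured on 17 Affymetrix arrays in 5 groups. Fetal liver HSCs at E15.5 (n = 3) were lineage-negative, Mac-1 low, Sca1+, cKit+, CD150+ and CD48-. Adult HSCs carried the same markers without the Mac-1 criterion and were taken at day 7 or day 21 after injection of pIpC, an RNA duplex made in the laboratory that triggers the interferon response and is used to switch on inducible Cre lines. They came from control mice labelled wild type (n = 3 at day 7 and n = 4 at day 21) and from mice titled C/EBPa KO (n = 3 and n = 4), so controls and KO mice share the pIpC injection. The labels name no genotype or pIpC for the fetal samples, and no Cre line, strain or adult age for any group. The labels conflict: titles name a C/EBPa KO, but the KO samples' genotype entry and the series' design statement name a Pu.1 knock-in (PU.1ki/ki). Cebpa intensity was 115.3 or more on all 7 control arrays and at most 39.8 on all 7 KO arrays. On the fetal arrays Cebpa read 30.2 to 81.0, also below every control array. Spi1, the gene for PU.1, overlapped between control and KO (125.7 to 623 in control and 231 to 460 in KO). Groups are called control and KO after the titles. Nothing in the labels says that arrays of a group came from separate animals, so errors measure the spread between these samples, which may be technical. Each SE and confidence interval rests on 1 spread per gene that all 5 groups share, not on the compared groups alone.

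When a receptor is activated, the alpha subunit of its G protein exchanges GDP for GTP, and alpha and beta-gamma subunits both signal until the GTP is hydrolysed. RGS proteins bind the GTP-bound alpha subunit through a shared RGS domain and speed up that hydrolysis, which shortens the signal. In HSCs and their descendants such receptors include Cxcr4 and the receptors for prostaglandin E, sphingosine-1-phosphate and thrombin, which act in homing, retention and mobilisation.

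The RGS genes fell into 3 patterns over the 5 groups. Rgs1 and Rgs2 were lower in fetal liver than in adult HSCs, and Rgs2 was also lower in KO than in control at both days. Rgs10 lay the other way, high in fetal liver and in KO at day 21. The other 5 genes overlapped in most comparisons. Levels are intensities on a linear scale with a floor of 16, fold changes are differences of group means on the log2 scale, and levels of different genes are not set against each other because probe sets bind with different strength. Of the 18 probe sets, 15 were above the floor on all arrays, and each gene is represented by its brightest probe set unless stated otherwise. In bulk RNA of a sorted population, fewer cells that express a gene and less RNA per cell cannot be told apart.

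**Figure D1:**
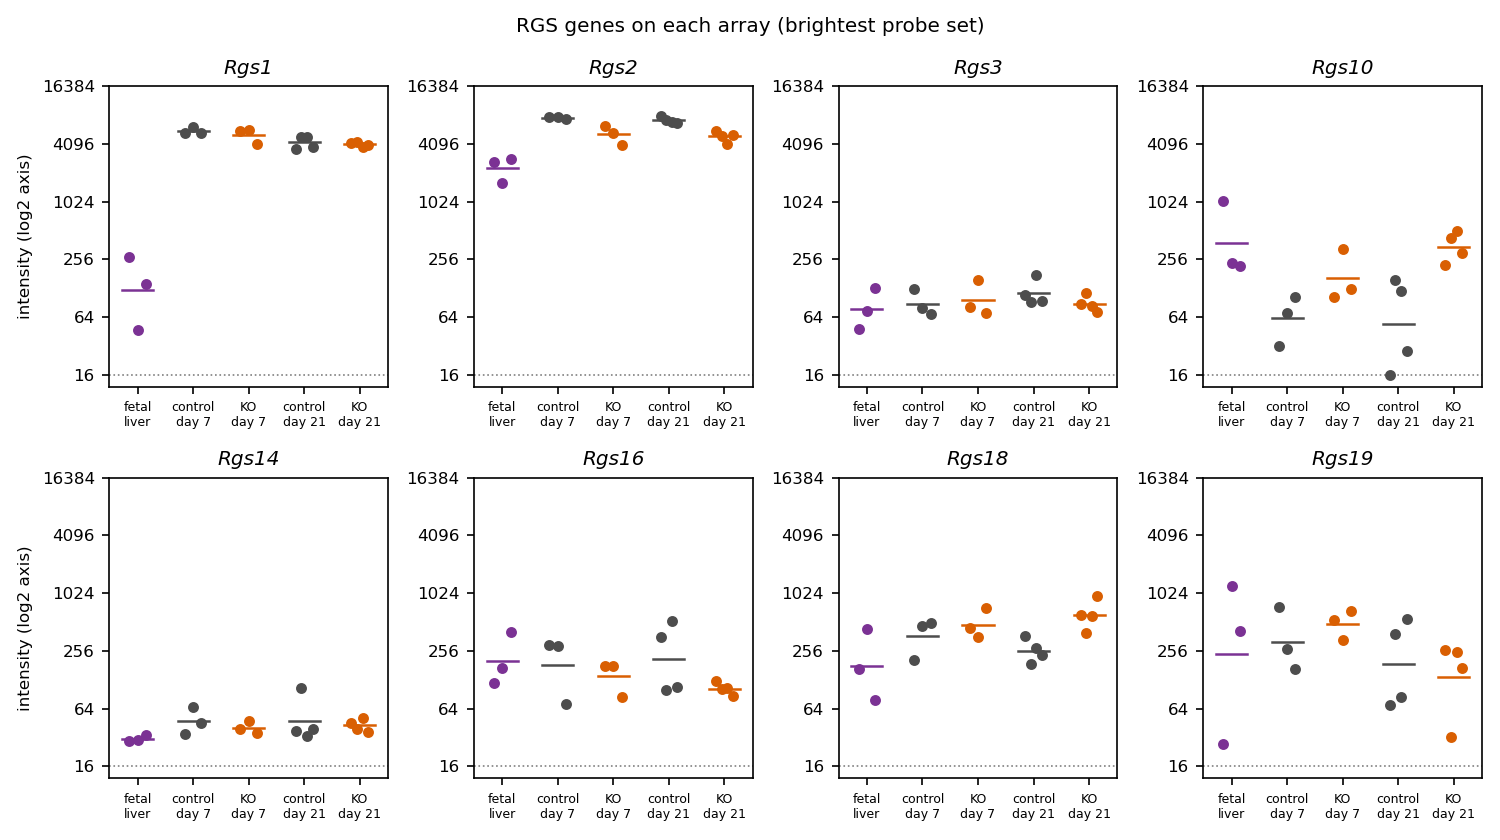
Intensity of the 8 RGS genes on each of 17 arrays (log2 axis, 1 point per array, brightest probe set, bars at the mean of log2 values, dotted line at the floor of 16) in fetal liver, control and KO. Rgs1 lies at 47.3 to 268 in fetal liver and at 3586 to 6101 on the adult arrays, and Rgs2 falls into 3 levels, control above KO above fetal liver.

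Rgs1, Rgs2, Rgs3, Rgs16 and Rgs18 belong to the R4 subfamily, mostly small proteins made of little more than the RGS domain, apart from the longer forms of Rgs3. Rgs1, which limits the response of lymphocytes to chemokines, was measured by 1 probe set (1417601_at). Its intensity in fetal liver HSCs was 268, 47.3 and 143. Control arrays read 5265, 6101 and 5311 at day 7, and 3586, 4873, 4855 and 3798 at day 21. Every fetal array therefore lay below every control array. KO arrays read 5511, 5659 and 4089 at day 7, and 4194, 4309, 3805 and 3948 at day 21. At day 21 these values lay within the range of the controls, and at day 7 the first 2 did, with the last below it.

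The mean Rgs1 intensity was 153 ± 111 (SD, n = 3) in fetal liver, 5559 ± 470 (SD, n = 3) in control at day 7 and 4278 ± 682 (SD, n = 4) in control at day 21. Against control, taken as the mean of its day 7 and day 21 groups, the fetal log2 difference was −5.31 (SE 0.36, 95% confidence interval −6.10 to −4.53), which is 39.8-fold lower. It ran from −5.88 without the first fetal array to −4.63 without the second, which held the lowest value. The KO difference was −0.14 (SE 0.43, interval −1.06 to 0.78) at day 7 and −0.06 (SE 0.37, interval −0.86 to 0.74) at day 21. Shifts of either sign within these intervals remain compatible with these arrays. The log2 SD of Rgs1 was 1.27 in fetal liver. It was 0.12 and 0.26 in control and KO at day 7, and 0.23 and 0.08 at day 21. Since the fit shares 1 spread over all groups, the KO intervals also carry the wide fetal scatter. The fetal interval in turn borrows the narrow adult scatter, and the 3 fetal arrays alone fix their mean less closely than it shows. Among adults the order of Rgs1 means was control day 7, KO day 7, control day 21, KO day 21, and neighbours in this order overlapped. Control arrays were lower at day 21 than at day 7 without overlap, by −0.39 (SE 0.40) on the log2 scale, whereas the KO arrays of the 2 days overlapped. In the comparison of control days 3.38% of all 16784 genes were lower without overlap, and in it 0.0298% of genes and none of the RGS genes passed the call (limma, Benjamini-Hochberg adjusted p under 0.05).

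Rgs2, which acts mainly on Gq and is itself switched on rapidly by many stimuli, was measured by 4 probe sets, the brightest being 1419247_at. In fetal liver it read 2614, 1611 and 2869. Control arrays read 7743, 7860 and 7433 at day 7, and 7912, 7301, 6959 and 6789 at day 21, a narrow band over both days. KO arrays read 6319, 5348 and 3979 at day 7, and 5568, 4927, 4121 and 5109 at day 21. The lowest of the 7 control arrays (6789) was above the highest of the 7 KO arrays (6319), and the lowest KO array (3979) was above the highest fetal array (2869). No array broke the order of control, KO and fetal liver.

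The KO difference of Rgs2 was −0.58 (SE 0.21, interval −1.04 to −0.13), or 1.5-fold lower, at day 7 and −0.56 (SE 0.18, interval −0.95 to −0.17), or 1.47-fold lower, at day 21. The effects of the 2 days differed by 0.02 (SE 0.28, interval −0.58 to 0.63). Leaving out 1 array at a time kept the difference between −0.74 and −0.40 at day 7 and between −0.62 and −0.48 at day 21. The fetal difference was −1.70 (SE 0.18, interval −2.08 to −1.31), or 3.25-fold lower than control, and the fetal and KO comparisons share their control arrays. Over all genes, 0.131% (22 genes) were lower without overlap when the 7 KO arrays were set against the 7 control arrays, and 0.0119% (2 genes) stood in the order control, KO, fetal liver without overlap at either step. These 2 genes were Rgs2 and Col16a1, a collagen chain, for which the ranges were 311 to 1492 in control, 107 to 274 in KO and 60.4 to 66.3 in fetal liver. This pooling of days was chosen after the values of Rgs2 were seen.

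The other probe sets of Rgs2 gave the same direction at day 7 and in fetal liver, and differed at day 21. Probe set 1419248_at had differences of −0.81 at day 7, −0.45 at day 21 and −1.69 in fetal liver, each without overlap. Its arrays ranged from 1999 to 3855 in control, from 1378 to 1957 in KO and from 654 to 968 in fetal liver, the same order of 3 separate levels. Probe set 1447830_s_at had −0.85 at day 7 without overlap, 0.02 at day 21 with overlap and −1.42 in fetal liver with overlap. On it the control arrays of day 21 spread from 504 to 1807, around the 845 to 997 of KO. The dimmest, 1443250_at, lay at the floor on 7 arrays and read at most 46.9. With the mean over the 4 probe sets the KO difference of Rgs2 at day 21 was −0.24.

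**Figure D2:**
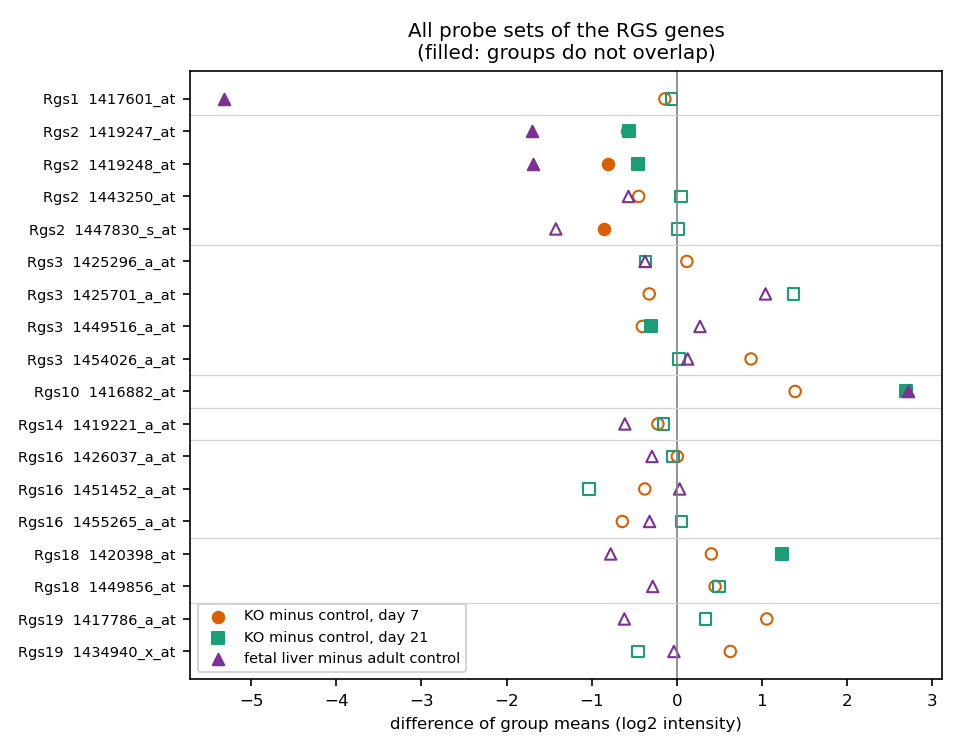
Difference of group means (log2 intensity) for each of the 18 probe sets of the RGS genes in KO against control at day 7 and day 21 and in fetal liver against adult control, with filled symbols where the groups did not overlap. Rgs2 is lower at −0.58 and −0.81 on its 2 brightest probe sets at day 7, and the probe sets of Rgs3 lie on both sides of 0.

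The stretch of 250 bases before the annotated start of Rgs2 is shown because Rgs2 is the member that differed from control in both KO groups and in fetal liver. It lies at chr1:144004150-144004399 on the minus strand of GRCm38.p6 (RefSeq) and is written 5′ to 3′ along the gene. Capitals mark the CRE core TGACG, the core of the sequence bound by cAMP-responsive factors, read on either strand.
Rgs2: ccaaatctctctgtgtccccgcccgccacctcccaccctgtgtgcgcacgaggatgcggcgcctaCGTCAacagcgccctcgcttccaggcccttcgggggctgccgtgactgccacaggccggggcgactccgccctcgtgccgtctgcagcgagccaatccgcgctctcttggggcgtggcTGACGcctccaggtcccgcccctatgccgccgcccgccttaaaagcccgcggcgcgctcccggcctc
This core stood 67 to 63 bases before the start on the gene's strand and 185 to 181 bases before it on the other strand. It occurs on either strand in 17.8% of 32851 promoter windows of the same length, and among the 8 windows listed for 5 of the RGS genes it was found in that of Rgs2. The window also held 4 GC boxes (GGGCGG on either strand), which 32.7% of all windows hold at least 1 of. The C/EBP motif TTGCNNAA (9.56% of windows), the AP-1 motif TGANTCA (6.75%), the PU.1 motif AGAGGAA (8.55%), the full CRE TGACGTCA (1.55%, overlapping the core), TATAAA (12.4%) and the E-box CACGTG (6.02%) were not among its letters on either strand. Across the RGS windows the C/EBP letters were found in 1 of Rgs3 and the PU.1 letters in those of Rgs16 and 1 of Rgs19. A match of letters describes the window and shows no binding.

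Rgs18, which is enriched in megakaryocytes and platelets and restrains their activation, was higher in KO at day 21 on its brighter probe set. On 1420398_at the control arrays of day 21 read 366, 188, 274 and 229, and the KO arrays 602, 393, 590 and 948. The groups did not overlap, and the difference was 1.23 (SE 0.47, interval 0.22 to 2.25), or 2.35-fold higher. At day 7 the control arrays (206, 469 and 494) and KO arrays (437, 358 and 708) overlapped, with a difference of 0.41 (SE 0.55). Fetal arrays read 166, 433 and 78.4 and overlapped the controls, with −0.78 (SE 0.46). On the second probe set, 1449856_at, the differences were 0.45 at day 7, 0.50 at day 21 and −0.28 in fetal liver, all with overlap, so the separation at day 21 was seen on 1 of 2 probe sets.

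Markers of megakaryocytes and platelets mostly had positive KO differences, as Rgs18 did, and their summed intensity overlapped at both days. Of 13 measured markers, 11 had a positive KO difference at day 7 and 10 at day 21, with medians of 0.42 and 1.03 beside 0.00 over all genes, and none passed the call. Their summed intensity ranged from 1643 to 2893 in control and 2179 to 5678 in KO at day 7, and from 1578 to 9823 in control and 5089 to 10120 in KO at day 21. Pf4, a chemokine of platelet granules, read 54.7 to 212 and 757 to 2488 at day 7, and 133 to 658 and 1540 to 3332 at day 21. Itga2b, an integrin of platelets that HSCs can also carry, read 267 to 394 in control and 787 to 1509 in KO at day 21. Other lists did separate KO from control at day 21, where Rgs18 and Rgs10 were higher. Summed over 6 genes, mast cell and basophil markers read 291.3 to 372.8 in KO and 192.6 to 242.2 in control, with 3 of the 6 positive. Summed over 9 genes, myeloid and macrophage markers were lower, at 2062 to 2671 and 2947 to 3372, with 2 of the 9 positive and 5 negative. The bright genes of this sum each overlapped. Lyz2 read 727.9 to 1454 in KO and 1408 to 1536 in control, and Prtn3 490.9 to 1296 and 930.3 to 1191. Cd48, Flt3, Cd34 and Il7r were listed as markers of cells outside the sorting gate. Their sum separated at day 7 (1280 to 2406 in KO and 678.3 to 976.9 in control) and overlapped at day 21. Most of the sum at day 7 was Cd34, at 1051 to 1557 in KO and 483.1 to 737.3 in control. The stated sort does not select on CD34. Flt3 and Il7r overlapped at day 7. Cd48, a surface protein the sort selects against, read 60.9 to 282.9 in KO and 16 to 18.75 in control at day 7. At day 21 Cd48 read 90.33 to 308.3 and 18.56 to 657.8. No gene of these lists was called in KO. The part of these markers in the RGS values of KO was not tested.

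Rgs3, whose longer forms also bind beta-gamma subunits, was dim and its 4 probe sets disagreed. On the brightest, 1425296_a_at, intensities ran from 48.2 to 129 in fetal liver, 69.3 to 176 in control and 70.4 to 155 in KO. The differences were 0.12 (SE 0.39) at day 7, −0.37 (SE 0.34) at day 21 and −0.37 (SE 0.33) in fetal liver, with overlapping groups. The other probe sets gave values from −0.41 to 0.87 at day 7, from −0.30 to 1.37 at day 21 and from 0.13 to 1.04 in fetal liver. On 1449516_a_at the KO arrays of day 21 (42.7 to 53.2) were below the controls (57.5 to 64.5) without overlap, with a difference of −0.30, whereas 1425701_a_at had 1.37 with overlap. With the mean over probe sets the sign of Rgs3 turned at day 21 (0.18) and in fetal liver (0.27).

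Rgs16, which dampens chemokine signals in lymphocytes, had wide and overlapping groups. On 1451452_a_at fetal arrays read 118, 169 and 403, and control arrays 294, 287 and 70.9 at day 7 and 356, 99.4, 527 and 107 at day 21. KO arrays read 178, 180 and 85.3 at day 7 and 123, 103, 104 and 86.7 at day 21. The KO arrays of day 21 were narrow and lay at the low end of the controls, which split into 2 high and 2 low arrays. The differences were −0.38 (SE 0.70) at day 7, −1.03 (SE 0.60, interval −2.33 to 0.27) at day 21 and 0.03 (SE 0.59) in fetal liver. Of its other probe sets, 1426037_a_at had differences from −0.29 to 0.01 in these 3 comparisons and 1455265_a_at lay at the floor on 15 of 17 arrays.

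Rgs10 and Rgs14 belong to the R12 subfamily, which favours alpha subunits of the Gi class. Rgs10, a small protein best known as a brake on activation of microglia, was measured by 1 probe set (1416882_at). In fetal liver it read 1043, 236 and 220. Control arrays read 32.2, 70.8 and 104 at day 7, and 16, 154, 121 and 28.2 at day 21, where the first lay at the floor. All fetal arrays were above all control arrays. KO arrays read 103, 327 and 126 at day 7, overlapping their controls by 1 array, and 226, 423, 506 and 301 at day 21, above all controls.

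The KO difference of Rgs10 was 1.39 (SE 0.86, interval −0.45 to 3.23) at day 7 and 2.69 (SE 0.74, interval 1.10 to 4.28), or 6.45-fold higher, at day 21. Between the 2 days the effect differed by 1.30 (SE 1.13, interval −1.14 to 3.73). The fetal difference was 2.71 (SE 0.72, interval 1.15 to 4.28), or 6.56-fold higher. It was 1.98 without the first fetal array, the highest of the 3, and the KO difference at day 21 was 2.11 without the control array at the floor. In order of means Rgs10 ran from fetal liver through KO at day 21, KO at day 7 and control at day 7 to control at day 21, and each neighbouring pair overlapped. Over all 17 arrays Rgs10 tended to run against Rgs2, with a Pearson r of −0.62 on log2 values, as a description of arrays that fall into groups.

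Erythroid markers were higher in fetal liver, as Rgs10 was. In KO their sum separated from control at day 7, where Rgs10 overlapped, and overlapped at day 21, where Rgs10 separated. The summed intensity of 7 erythroid markers was 5584 to 7444 in fetal liver. It was 1245 to 1826 in control and 2026 to 6428 in KO at day 7, and 996 to 3352 in control and 1481 to 5880 in KO at day 21. Alas2, 1 of the 7, read 51.55 to 4799 in KO and 30.78 to 168 in control at day 7. In fetal liver 4 of the 7 passed the call as higher, beside 316 of all 16784 genes. In KO 6 of 7 had a positive difference at each day, with none called. Gata1, a transcription factor of erythroid and megakaryocytic cells, read 336 to 425 in fetal liver, 62.7 to 150 in control and 287 to 554 in KO at day 7. At day 21 Gata1 read 30.6 to 484 in control and 122 to 791 in KO, which overlapped each other and fetal liver. Of 9 myeloid and macrophage markers, 8 had a positive fetal difference (median 1.29) and none was called, and their sum read 2835 to 10360 in fetal liver and 2566 to 3372 in control, with overlap. The part of these markers in the Rgs10 values was not tested.

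The window before the start of Rgs10 is shown as the counterpart of Rgs2, since Rgs10 lay in the opposite direction. It spans chr7:128418173-128418422 on the minus strand of GRCm38.p6 (RefSeq), and capitals mark the GC box GGGCGG.
Rgs10: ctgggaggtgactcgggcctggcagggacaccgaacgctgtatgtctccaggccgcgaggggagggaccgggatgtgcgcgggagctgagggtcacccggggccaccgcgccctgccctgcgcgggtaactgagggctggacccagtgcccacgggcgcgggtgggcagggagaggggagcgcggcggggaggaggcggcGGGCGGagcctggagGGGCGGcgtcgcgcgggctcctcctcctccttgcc
The 2 GC boxes stood 50 to 45 and 35 to 30 bases before the start. The CRE core, the full CRE and the C/EBP, AP-1, PU.1, TATAAA and E-box letters searched above were not in this window on either strand. Both windows were rich in G and C, at 72.4% for Rgs2 and 76.4% for Rgs10.

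Rgs14, a scaffold that also binds Ras proteins and, through a GoLoco motif, inactive Gi alpha subunits, was near the low end of the scale on its 1 probe set (1419221_a_at). Fetal arrays read 29.5, 29.8 and 34.0, and control arrays 35, 67.2 and 44.7 at day 7 and 37.5, 104, 33.5 and 38.9 at day 21. KO arrays read 39.4, 47.2 and 35.6 at day 7, and 45.4, 39.2, 51.1 and 36.6 at day 21. Fetal arrays were below all KO arrays but overlapped the controls by 1 array. In the comparison of fetal liver with the 7 KO arrays 3.53% of all genes were lower without overlap, and Rgs1, Rgs2 and Rgs14 were the RGS genes among them. Against control the fetal difference was −0.61 (SE 0.30, interval −1.26 to 0.04), and the KO differences were −0.22 (SE 0.36) and −0.15 (SE 0.31) at day 7 and day 21.

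Rgs19, the RZ subfamily member also known as GAIP, acts on the Gi class. Its differences had the largest SE of the 8 genes. On 1434940_x_at fetal arrays read 27.4, 1210 and 411, and control arrays 730, 269 and 165 at day 7 and 70.0, 387, 83.7 and 551 at day 21. KO arrays read 538, 335 and 662 at day 7 and 259, 32.1, 248 and 171 at day 21, so that KO arrays of day 21 lay below those of day 7. The differences from control were 0.63 (SE 1.25, interval −2.07 to 3.33) at day 7, −0.46 (SE 1.09, interval −2.80 to 1.88) at day 21 and −0.03 (SE 1.06) in fetal liver, all with overlap. The fetal value ran from −1.20 without the second fetal array to 1.53 without the first, and the KO difference at day 21 from −0.93 to 0.24 with 1 array left out, so neither has a settled sign. Between the KO groups the difference of day 21 from day 7 was −1.85 (SE 1.17, interval −4.37 to 0.68), and −1.15 without the second KO array of day 21. The second probe set, 1417786_a_at, also separated the KO groups, at 215 to 476 on day 7 and 160 to 196 on day 21. Its differences from control were 1.06 at day 7, 0.335 at day 21 and −0.62 in fetal liver, all with overlap. At day 21 the 2 probe sets thus differed in sign. In the comparison of KO day 21 with KO day 7, 4.05% of all genes were lower without overlap, 0.0179% were called, and no RGS gene was called.

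**Figure D3:**
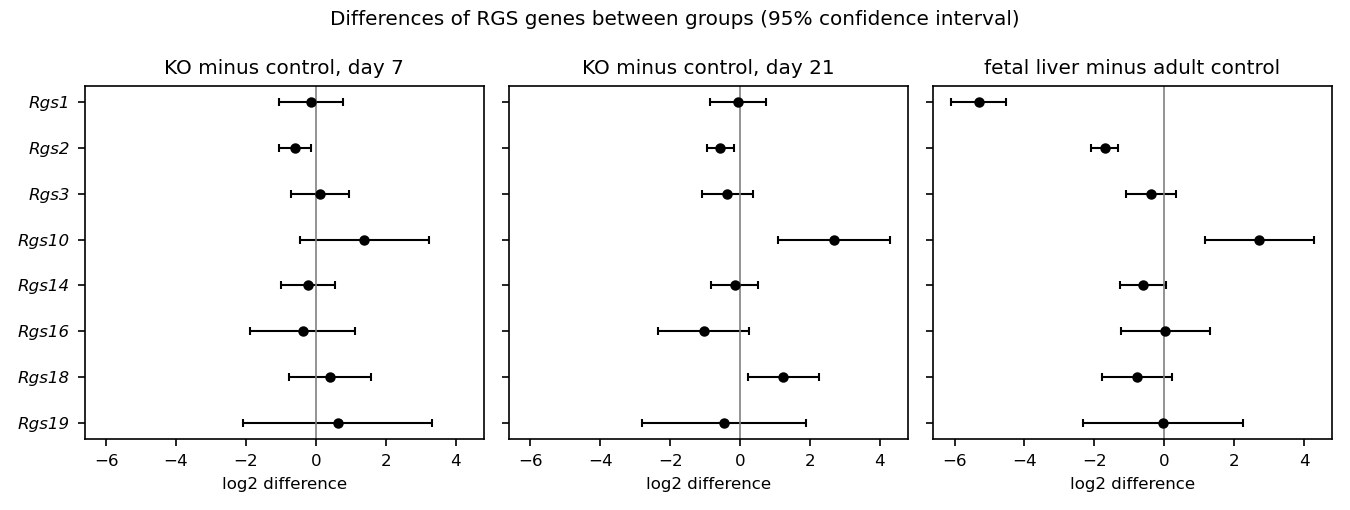
Log2 difference of group means with 95% confidence interval for the 8 RGS genes in KO against control at day 7, KO against control at day 21 and fetal liver against the mean of adult controls. The fetal intervals of Rgs1 (−6.10 to −4.53) and Rgs2 (−2.08 to −1.31) lie below 0 and that of Rgs10 (1.15 to 4.28) above it.

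Counted over the 8 genes, 2 passed the call in fetal liver against adult control (Rgs1 and Rgs2, both lower), beside 3.65% of all genes (613 genes, with 1.77% called lower). In KO against control none of the 8 passed, beside 0% of all genes at day 7 and 0.0179% (3 genes) at day 21, nor for the difference between the KO effects of the 2 days (0% of all genes). At an unadjusted limma p under 0.05 there were 1128 genes at day 7, 1690 at day 21 and 758 for the difference of effects. Without overlap and lower in KO were 1 of 8 at day 7 (Rgs2, beside 6.39% of all genes) and 1 of 8 at day 21 (Rgs2, beside 2.35%). Without overlap and higher were 0 of 8 at day 7 (7.48% of all genes) and 2 of 8 at day 21 (Rgs10 and Rgs18, beside 3.14%). In fetal liver against control 2 were lower without overlap (Rgs1 and Rgs2, beside 2.68%) and 1 was higher (Rgs10, beside 3.37%), and against all 14 adult arrays Rgs1 and Rgs2 were lower (beside 1.34%). Since the members were picked with these values known, the counts describe them and nothing is read from them.

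Of the 8, 4 lie on mouse chromosome 1, which holds 11 of the 21 RGS genes in the RefSeq table. Rgs2, Rgs13, Rgs1, Rgs21 and Rgs18 follow each other there as coding neighbours, between Uchl5 and Brinp3, and Rgs8 and Rgs16 are neighbours elsewhere on it. Within the run of 5, Rgs1 and Rgs2 were low in fetal liver, Rgs18 overlapped, Rgs13 was at the floor on all arrays and Rgs21 was not named here.

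None of the other RGS genes was called. Of 13 named, counting the binding proteins Rgs7bp and Rgs9bp, Rgs4, Rgs9bp and Rgs13 never rose above the floor, and none of the other 10 was called in any comparison. Their median log2 difference was 0.01 at day 7 and −0.14 at day 21 in KO and −0.01 in fetal liver. The 2 with the smallest fetal p were Rgs20, at −0.36 (SE 0.13, limma adjusted p = 0.168), and Rgs12, a long R12 member, at −0.94 (SE 0.47, limma adjusted p = 0.338). Rgs12 read 82.2 to 142 in fetal liver, 85.0 to 483 in control and 85.9 to 264 in KO, with overlap.

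The pathway around the RGS proteins was followed from receptors to effectors. Among 25 measured receptors of HSCs, 2 were called lower in fetal liver (1 when only the compared arrays were fitted) and none higher. Over all genes 1.77% were called lower. F2r, a thrombin receptor, read 286 to 695 in fetal liver and 961 to 2687 in control (−2.02, SE 0.35, limma adjusted p = 0.00553). Ptger3, a prostaglandin E receptor coupled to Gi, read 16 to 49.6 and 73.6 to 814 (−3.50, SE 0.62, limma adjusted p = 0.00617). For both receptors the fetal arrays lay below all control arrays, as they did for 2.68% of all genes. The median of the 25 was −0.17, beside 0.02 over all genes, and Cxcr4, the receptor for Cxcl12, was at −0.17 (SE 0.45, limma adjusted p = 0.908).

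None of 13 G alpha genes was called in fetal liver (median −0.17). The G alpha genes with the smallest p were Gnai3, a Gi subunit, at −0.63 (SE 0.26, limma adjusted p = 0.222), and Gna12 at 1.21 (SE 0.54, limma adjusted p = 0.281). None of 14 G beta and gamma genes was called (median 0.13), Gnb5 standing at −0.98 (SE 0.33, limma adjusted p = 0.135). None of 11 genes for receptor kinases and other nucleotide exchange or inhibitor proteins was called (median 0.18), with Grk6 at −1.22 (SE 0.36, limma adjusted p = 0.0844). Among 22 effector genes 1 was called lower, beside 1.77% of all genes. It was Pde4b, a phosphodiesterase that degrades cAMP, at −3.40 (SE 0.38, limma adjusted p = 0.000131). Pde4b read 91.8 to 413 in fetal liver and 1530 to 2989 in control.

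In KO against control no gene of these lists was called at either day. Pde4b read 2261 to 2875 in control and 782 to 1273 in KO at day 7 (−1.37, SE 0.44, limma adjusted p = 0.548). Prkar1a, a regulatory subunit of the cAMP-dependent kinase, had −0.69 (SE 0.19, limma adjusted p = 0.477) at day 7. At day 21 Adcy7, an adenylyl cyclase, had −1.11 (SE 0.36, limma adjusted p = 0.315) and Gnai3 had −0.73 (SE 0.26, limma adjusted p = 0.358). F2r had −0.69 (SE 0.36, limma adjusted p = 0.555) at day 21. None of these passed the threshold.

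By likeness over the 17 arrays, Rgs1 and Rgs2 lay closest to different genes. Among 8392 genes above the median gene, those with the highest Pearson r of log2 values to Rgs1 were Egr1 (0.978), Ier3 (0.976) and Skil (0.968). Those closest to Rgs2 were Pde4b (0.958), Tsc22d1 (0.938) and Krt18 (0.926). Rgs1 and Rgs2 themselves had an r of 0.889. The 3 fetal arrays stood below every adult array for both, so these r describe groups that lie apart. The closest to Rgs10 were Qtrt1 (0.852), Timm8b (0.848) and Mrps28 (0.838), and to Rgs18 Krr1 (0.843), Ms4a6c (0.796) and Abca4 (0.79). For Rgs3, Rgs14, Rgs16 and Rgs19 the highest r were 0.828 (Abcg3), 0.797 (Dusp10), 0.826 (4930481A15Rik) and 0.78 (Adnp2).

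Immediate early genes, which many stimuli and the handling of cells switch on within minutes, were lower in fetal liver together with Rgs1 and Rgs2. Of 22 measured, 16 were called lower and none higher (9 lower when only the compared arrays were fitted), with a median log2 difference of −1.85 beside 0.02 over all genes. The share of all genes called lower was 1.77%. This list, like the RGS genes, was chosen with earlier results of these data known. Egr1, a zinc finger transcription factor, read 846 to 2723 in fetal liver and 8271 to 10240 in control (−2.78, SE 0.27, limma adjusted p = 3.78e-05). Fosb and Jun, subunits of AP-1, had −3.32 (SE 0.34, limma adjusted p = 6.52e-05) and −1.79 (SE 0.19, limma adjusted p = 0.000101). Klf4, a Krüppel-like factor, had −2.92 (SE 0.30, limma adjusted p = 7.85e-05). Fos read 1691 to 1856 in fetal liver and 2194 to 7507 in control. No fetal array reached a control array for any of Egr1, Fosb, Jun, Klf4 and Fos, beside 2.68% of all genes lower without overlap. These genes were named by smallest p or, for Fos, after values were seen. Others of the list overlapped, among them Dusp1 (1522 to 2969 in fetal liver and 2136 to 5927 in control), Klf6, Klf2 and Atf3.

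**Figure D4:**
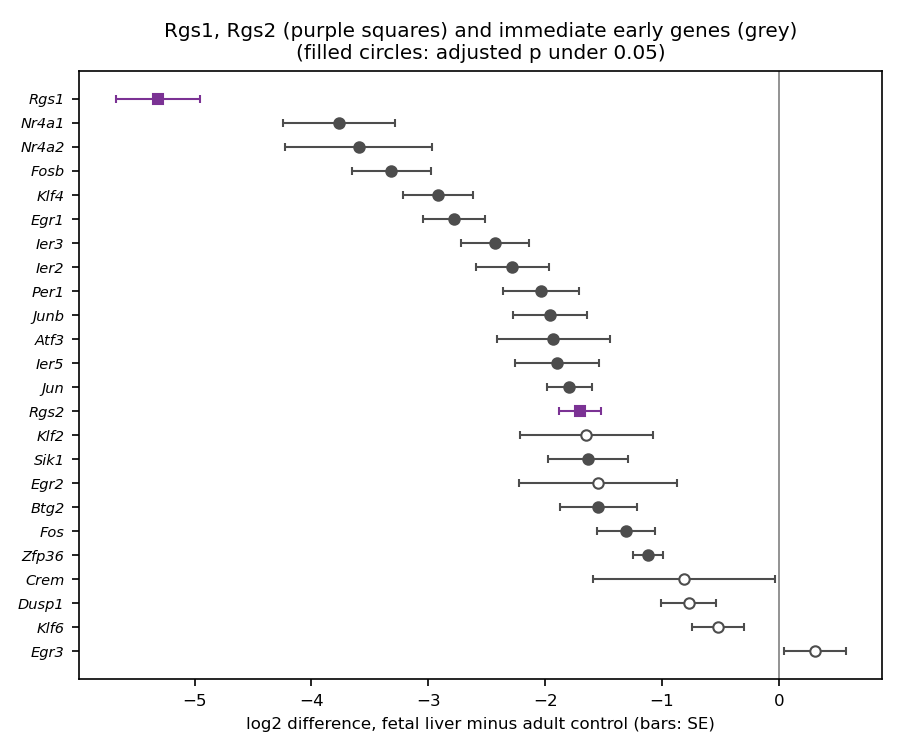
Log2 difference of fetal liver from adult control (bars, SE) for Rgs1 and Rgs2 (squares) and 22 immediate early genes (circles, filled where the limma adjusted p was under 0.05). Of the 22, 16 circles are filled and lie below 0, Rgs1 is the lowest point at −5.31 and Rgs2 lies at −1.70 among them.

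The summed intensity of the 22 genes was 15980 to 27810 in fetal liver. It was 77790 to 87000 in control and 57160 to 70430 in KO at day 7, without overlap, as for Rgs2. At day 21 it was 55130 to 68470 in control and 58000 to 60170 in KO, which overlapped, whereas the Rgs2 groups of that day did not. None of the 22 was called in KO. Klf4 had −1.25 (SE 0.36, limma adjusted p = 0.491) at day 7 and −1.01 (SE 0.31, limma adjusted p = 0.291) at day 21, and Egr2 had 2.87 (SE 0.69, limma adjusted p = 0.173) at day 21. The part of such stimulation in the Rgs1 and Rgs2 values was not tested.

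Other cell markers moved with the fetal comparison as well. Summed over 6 genes, hepatocyte markers read 747 to 9357 in fetal liver and 334 to 1086 in control (3 called higher), with Alb, serum albumin, at 123 to 3016 and 45.4 to 324. Summed over 8 genes, endothelial markers read 2474 to 10620 and 837 to 1509 (4 called higher). Of all 16784 genes, 316 were called higher in fetal liver. Of 8 HSC markers, 3 had a positive and 5 a negative fetal difference, and 1 was called lower (beside 1.77% of all genes). In KO 2 of the 8 were positive at day 7 and 1 at day 21. Among them Kit read 549 to 602 in fetal liver, 581 to 905 in control and 442 to 856 in KO. Hlf, a transcription factor of HSCs, read 1398 to 2260, 1712 to 2935 and 833 to 2577. Summed over 8 genes, HSC markers read 4911 to 7203 in fetal liver and 5896 to 8967 in control, with overlap. At day 7 these markers read 7582 to 8967 in control and 4927 to 5871 in KO, and at day 21 5896 to 8299 and 3860 to 6588. Their part in the lower Rgs2 of KO and fetal liver was not tested. The second fetal array had the least Rgs1 and, on the brightest probe set, the least Rgs2. On 1419248_at its Rgs2 value (968) was the highest of the fetal arrays. Without this array the fetal difference of Rgs2 on the brightest probe set was −1.44.

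Probe sets at the floor made up 20.4% to 25.2% of an array, the median intensity was 39.4 to 53.1, and the log2 ratio of 3' to 5' control probe sets was −0.4 to 0.52. With that ratio as a covariate the KO difference of Rgs2 was −0.59 at day 7 and −0.48 at day 21, and the fetal difference −1.66. With the share at the floor as a covariate they were −0.53, −0.48 and −1.68.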

How the data were processed

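The deposited intensities (linear, 1 value per probe set, lowest value 16) were made by the authors; RMA is the tool that the submitters' processing notes name, with no version; how the values were scaled is not stated in the sources used here. The values of 45101 probe sets on 17 arrays were taken to log2 with no pseudocount. Of the probe sets, 34945 were listed with 1 gene and 932 with several, which were not used. The probe set with the highest mean log2 value over all arrays stood for each of 18193 genes; 1409 at the floor on all arrays were left out and 16784 were tested.

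In limma 3.58.1 (R 4.3.3), all 17 arrays entered a linear model in which each group has a mean (residual df 12, prior df 1.5), with no covariate; a call means p under 0.05 after Benjamini-Hochberg adjustment. It was tested on simulated data with 200 changed genes. The alternatives were array centring, quantile normalization, the probe set mean, brighter genes, a floor of 32, the compared arrays alone, a replicate block, a trended robust prior, 2 covariates and leaving out each array. Replicate numbers did not pair arrays: deviations of same-numbered control and KO arrays correlated at −0.025 to 0.078. No 2 arrays were identical (highest r 0.952).

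The RGS genes and all gene lists were chosen with earlier results of these data known. Named were the 8 members, up to 4 called genes per list, direction and comparison or, where none was called, the 2 with the smallest p, and the 3 genes most like each member; not every such gene is printed, and Cxcr4, Fos, the marker genes and the order of control, KO and fetal liver were picked after values were seen. Promoter windows are RefSeq GRCm38.p6, and the table held 5 of the 8 genes; Rgs1, Rgs14 and Rgs18 are named only.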

Additional observations from a re-analysis of the deposited data

Results flagged for a closer look

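Of 16 groups of 4 arrays examined (the 8 RGS genes in control and KO at day 21), 1 held an array far from the rest. Rgs14 read 104 in the second control array of day 21, against 38.9 in the nearest of the other 3, a gap of 0.869 of the group's range on the log2 scale, above Dixon's 95% critical value for 4 arrays. Chance flags about 1 in 20 such groups.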

How the results depend on the processing

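The RGS genes were chosen from these same arrays, so their calls under other settings describe these arrays and are no independent support. Rgs1 and Rgs2 were called lower in fetal liver under all 10 alternatives and whichever array was left out. Rgs10 joined them as a further call (higher) with the probe set mean, brighter genes alone, a floor of 32 or the 3' to 5' covariate, and without control array 2 or 3 of day 21. No RGS gene was called in another comparison under any of them. Of the differences of RGS genes recomputed under these alternatives 464 stayed within 1 SD or kept their call and 10 moved further, as did 0 of 416 with an array left out, where the SD of Rgs19 was wide enough to hold shifts that turned its sign; a difference that was not called could change sign, as Rgs3 did with the probe set mean, and the causes were not tested. With the 3' to 5' covariate Rgs19 turned from −0.76 to 1.45 for control day 21 against day 7, and went from −1.09 to −3.29 for the difference of KO effects and from −0.46 to −2.48 for KO at day 21.

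Counts of called genes moved more. Fetal liver against control had 613, with 234 when the compared arrays were fitted alone (fewer arrays share the spread) and 419 to 691 with an array left out; immediate early genes called lower were 16, 9 and 15 to 16. With the probe set mean 2 G alpha and 2 effector genes were called lower in fetal liver, where 0 and 1 had been. KO against control at day 21 had 3, with 8 after centring, 19 with the probe set mean or a floor of 32, 9 among brighter genes, 0 for compared arrays alone, 1 with either covariate and 1 to 42 with an array left out (42 without the second control array). At day 7 it had 0, with 2 for the probe set mean and 0 to 6 with an array left out. Control day 21 against day 7 had 5, with 3 for the probe set mean or a floor of 32, 2 among brighter genes, 1 with either covariate and 1 to 11 with an array left out. KO day 21 against day 7 had 3, with 1 for the probe set mean or either covariate, 0 for compared arrays alone and 1 to 7 with an array left out. The difference of KO effects had 0, and 0 to 2 with an array left out.

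With the replicate number as a block, which the labels do not tie to a litter or day, the counts were 0 and 3 for KO at day 7 and day 21, 524 for fetal liver, 4 and 2 for the changes with day in control and KO, 0 for the difference of effects, 2 RGS genes and 15 immediate early genes in fetal liver. Arrays give no count depth; 3 or 4 per group limit the precision, and values at the floor are upper bounds.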
